A study of Mus musculus with 12 samples.

Results

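The cytosolic ribosomal protein genes encode the proteins that, with ribosomal RNA, make up the large and the small subunit of the ribosome that translates messenger RNA in the cytoplasm. Members were the genes whose probe sets carried a single symbol of the form Rpl or Rps with a number, the stalk proteins and Rpsa included and the Rps6k kinases left out. Of the 8251 genes named on the array, 35 met this rule: 15 of the large subunit, 16 of the small subunit and 4 variants or paralogs (Rpl39l, Rpl7l1, Rps4l and Rps27l). They were measured by 49 probe sets, and for each gene the probe set with the highest mean log2 signal was used.

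The arrays came from fat of male C57BL/6 mice, an inbred strain, aged 42 to 49 days, with no treatment or altered gene named in the labels. Tissue of 10 mice was pooled by depot and digested with collagenase. The depots were subcutaneous fat of the flank and epididymal fat, called intraabdominal here. From each depot 3 arrays held adipocytes and 3 held stromo-vascular cells, which gave 4 groups. Stromo-vascular cells are what remains when fat cells have floated off, a mixture of precursors, fibroblasts, vessel and immune cells. Adipocyte RNA came from freshly isolated cells, whereas stromo-vascular cells were plated at 60000 cells per cm2 and kept in culture for 16 h ahead of RNA extraction. Cell fraction and culture therefore cannot be told apart in any comparison of the fractions, and each group is pooled tissue rather than single animals.

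Ribosomal proteins are assembled with ribosomal RNA in near equal amounts, and their messenger RNAs are among the most abundant of most cells. In mammals these messages begin with a run of pyrimidines at the transcription start, the terminal oligopyrimidine or TOP tract, through which mTOR signalling controls how well they are translated. Growing and dividing cells make many ribosomes, while mature adipocytes do not divide.

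Promoter sequences are shown for 6 members named in the results below. They were not chosen by size of difference, and Rpl10a, Rpl22, Rps19 and Rpl32, with larger fraction differences than some shown, are left out. The sequences let the start region of genes lower in adipocytes (Rpl13a, Rps7, Rps3a1) be compared with that of others. Of these, Rpl41 and Rps28 were higher in adipocytes as deposited, and Rpl39l differed by depot. Each sequence runs from 60 bases before to 20 bases after the first base of the gene, 5′ to 3′ on the gene's strand, from RefSeq promoters of build GRCm38.p6. Capitals mark CCGGAA on either strand (written TTCCGG on the other).
Rpl13a, chr7:45128726-45128805, minus strand: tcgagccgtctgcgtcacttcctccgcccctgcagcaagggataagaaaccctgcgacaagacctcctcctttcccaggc
Rps7, chr12:28635934-28636013, minus strand: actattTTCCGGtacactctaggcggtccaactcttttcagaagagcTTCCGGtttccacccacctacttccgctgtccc
Rps3a1, chr3:86142649-86142728, minus strand: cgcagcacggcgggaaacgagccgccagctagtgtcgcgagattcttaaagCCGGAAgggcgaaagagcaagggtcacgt
Rpl41, chr10:128549149-128549228, minus strand: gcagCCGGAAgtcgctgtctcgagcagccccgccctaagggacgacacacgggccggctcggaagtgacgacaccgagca
Rps28, chr17:33824543-33824622, minus strand: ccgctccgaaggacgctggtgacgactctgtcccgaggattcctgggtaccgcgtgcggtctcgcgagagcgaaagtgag
Rpl39l, chr16:10170168-10170247, plus strand: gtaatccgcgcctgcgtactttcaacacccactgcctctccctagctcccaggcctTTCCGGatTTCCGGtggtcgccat

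Near the first base Rpl13a had a pyrimidine run of 14 bases, CCTCCTCCTTTCCC, from position 3. Rps7 had CTTCC from position 8 and Rpl39l had CCTTTCC from position -7. In these windows Rps7 and Rpl39l each had 2 copies of CCGGAA, Rps3a1 and Rpl41 each had 1, and Rpl13a and Rps28 had 0. RefSeq promoters were found for 28 of the 35 members. Over the 300-base windows, 17 of these 28 genes (60.7%) held CCGGAA on either strand, against 16.7% of all 27025 genes with a promoter. Also on either strand, the GC box GGGCGG was present in 17 (60.7% against 38.2%) and AAGATGG in 7 (25% against 7.28%). A tract of C followed by at least 4 pyrimidines began at the annotated first base in 5 members (17.9%, against 3.01% of all genes), and began within 10 bases of it in 17 (60.7% against 34.4%). Annotated gene starts can differ from the transcription starts used in fat, and a match is a description of letters only.

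**Figure D1:**
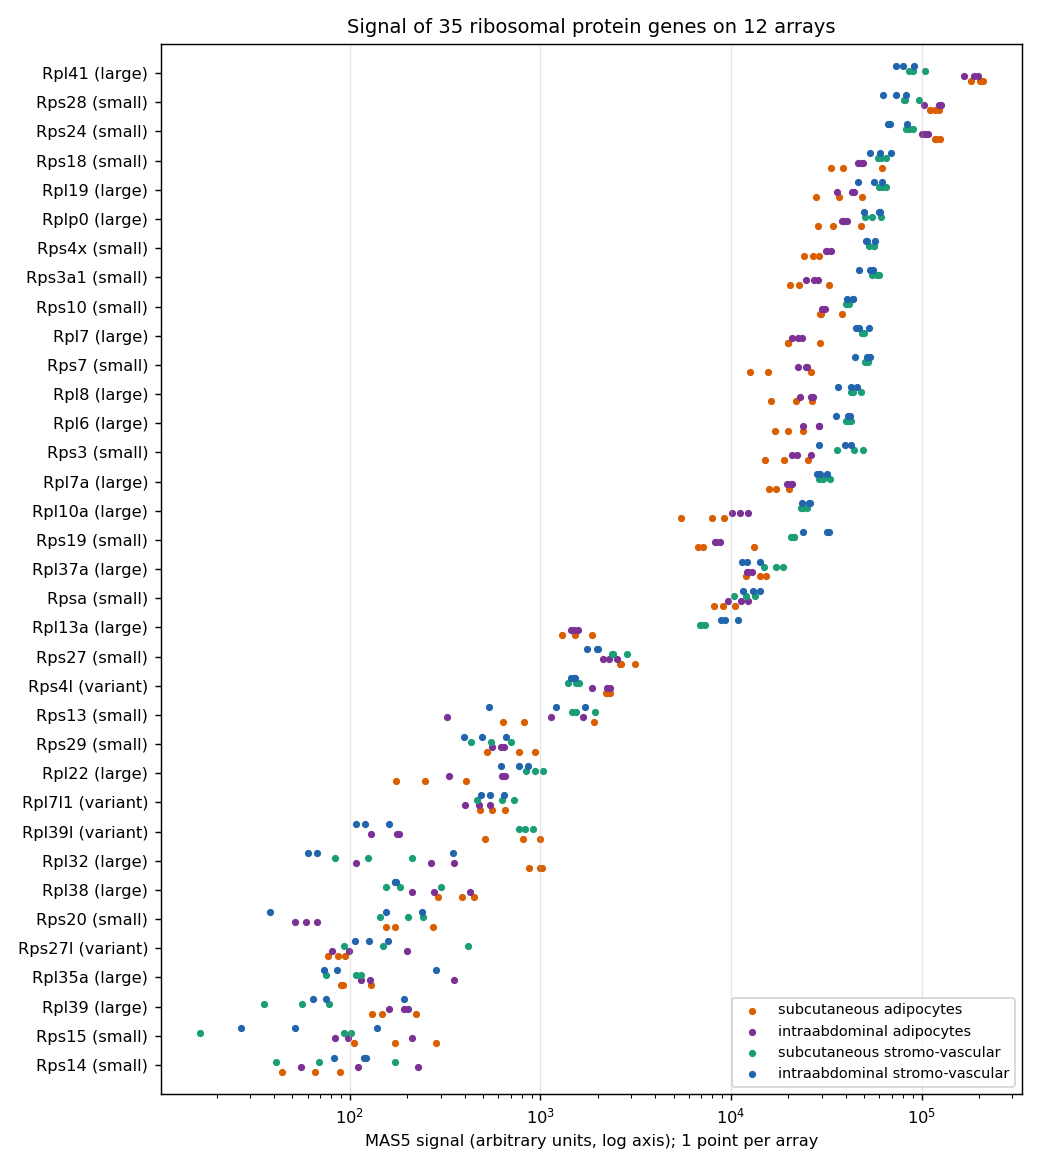
MAS5 signal in arbitrary units (log axis) of the 35 members on the 12 arrays, 1 point per array, coloured by group, genes sorted by mean log2 signal. In most bright members the stromo-vascular points lie to the right of the adipocyte points, and in Rpl41, Rps28 and Rps24 at the top they lie to the left, an order that quantile normalization turned round for Rps24 and Rps28 in both depots and for Rpl41 in intraabdominal fat.

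The deposited signals show where each member lies in the range of its array, but probe sets bind their targets unequally, so signals were compared between groups within a probe set and not between genes. The 3 brightest members were Rpl41, which encodes a very small basic protein, and Rps28 and Rps24 of the small subunit, with mean signals over all arrays of 139540, 98723 and 96098. At the other end, Rps14, Rps15 and Rpl39 had mean signals of 99.7, 115 and 130. With Rps20, Rps27l and Rpl35a they were the 6 members in the lowest 30% of mean log2 signal, below about 173, and were not tested. The other 29 members passed this filter. Among them Rpl32 and Rpl39l passed through the groups in which they were high, since in the other groups their mean signals lay between 130 and 242.

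All 35 members together made up 2.62%, 2.44% and 2.99% of the summed signal of the subcutaneous adipocyte arrays and 2.76%, 2.68% and 2.59% of the intraabdominal ones. The share was 3.3%, 3.42% and 3.57% in subcutaneous and 3.05%, 3.31% and 3.49% in intraabdominal stromo-vascular cells. Every stromo-vascular array was above every adipocyte array. Rpl41, Rps28 and Rps24 went against this order, with 1.44% ± 0.01 and 1.33% ± 0.0666 in subcutaneous and intraabdominal adipocytes against 0.961% ± 0.0686 and 0.838% ± 0.0836 in the matching stromo-vascular cells (SD, n = 3 each). The other 32 members held 1.24% ± 0.277 and 1.35% ± 0.0416 in adipocytes and 2.47% ± 0.0764 and 2.45% ± 0.14 in stromo-vascular cells, with no overlap.

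**Figure D2:**
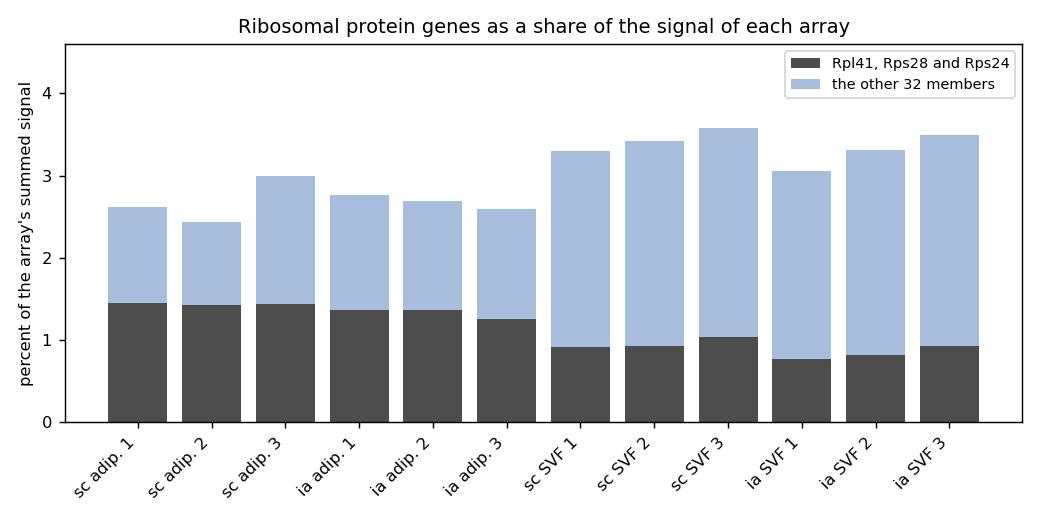
Percent of the summed signal of each array held by the ribosomal protein genes, 1 bar per array (sc, subcutaneous; ia, intraabdominal; adip., adipocytes; SVF, stromo-vascular cells), with Rpl41, Rps28 and Rps24 in dark grey and the other 32 members in blue. The blue part is 1.01% to 1.55% on adipocyte arrays and 2.29% to 2.56% on stromo-vascular arrays, while the dark part, as deposited, is higher on adipocyte arrays; quantile normalization turned that order round for Rps24 and Rps28 in both depots.

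The comparison of adipocytes with stromo-vascular cells asked how the fractions of 1 depot differ, and most members with a clear signal were lower in adipocytes. In subcutaneous fat 17 of the 29 tested members were called lower and 5 higher (limma, Benjamini-Hochberg adjusted p under 0.05 over 8695 probe sets), where 29.4% of all probe sets tested were lower and 23.5% higher. In intraabdominal fat 13 were lower and 4 higher, against 29% and 22.4% of all. Over the 29 tested members the median log2 difference was -0.62 in subcutaneous and -0.41 in intraabdominal fat, beside -0.04 and -0.11 over all probe sets tested. Over all 35 members it was -0.36 and -0.26, beside 0.09 and -0.03 over all 12422 probe sets, untested ones included. In total 75.9% of tested members were called in subcutaneous fat and 58.6% in intraabdominal fat, against 52.8% and 51.3% of all probe sets, so the intraabdominal total lay near the background, with more of the calls lower than higher. The 3 arrays of each fraction did not overlap in 22 and 21 of the 35 members, untested ones included, where 60% and 59.9% of all probe sets tested did not overlap.

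RNA quality moved with the fraction. The signal ratio of the 3′ to the 5′ actin control probe sets, which rises as RNA is shortened from its 5′ end, was 3.09, 3.1 and 2.35 on subcutaneous and 1.71, 2.24 and 2.16 on intraabdominal adipocyte arrays, and between 1.11 and 1.24 on stromo-vascular arrays. With the log2 of this ratio as a covariate the calls fell to 1 lower and 0 higher in subcutaneous fat and to 1 lower and 1 higher in intraabdominal fat, where 12.2% and 25% of all probe sets were still called. In subcutaneous fat the log2 differences of Rpl22, Rps19, Rps3 and Rps7 then read 0.34, 0.06, 0.20 and 0.02, and that of Rps3 in intraabdominal fat 0.21, none of them called. The members still called were Rpl13a, lower in both depots, and Rpl41, higher in intraabdominal fat. The ratio does not overlap between the fractions, so its part and that of the fraction cannot be told apart in full. In pooled cells, fewer cells of a type and less RNA per cell cannot be told apart either.

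**Figure D3:**
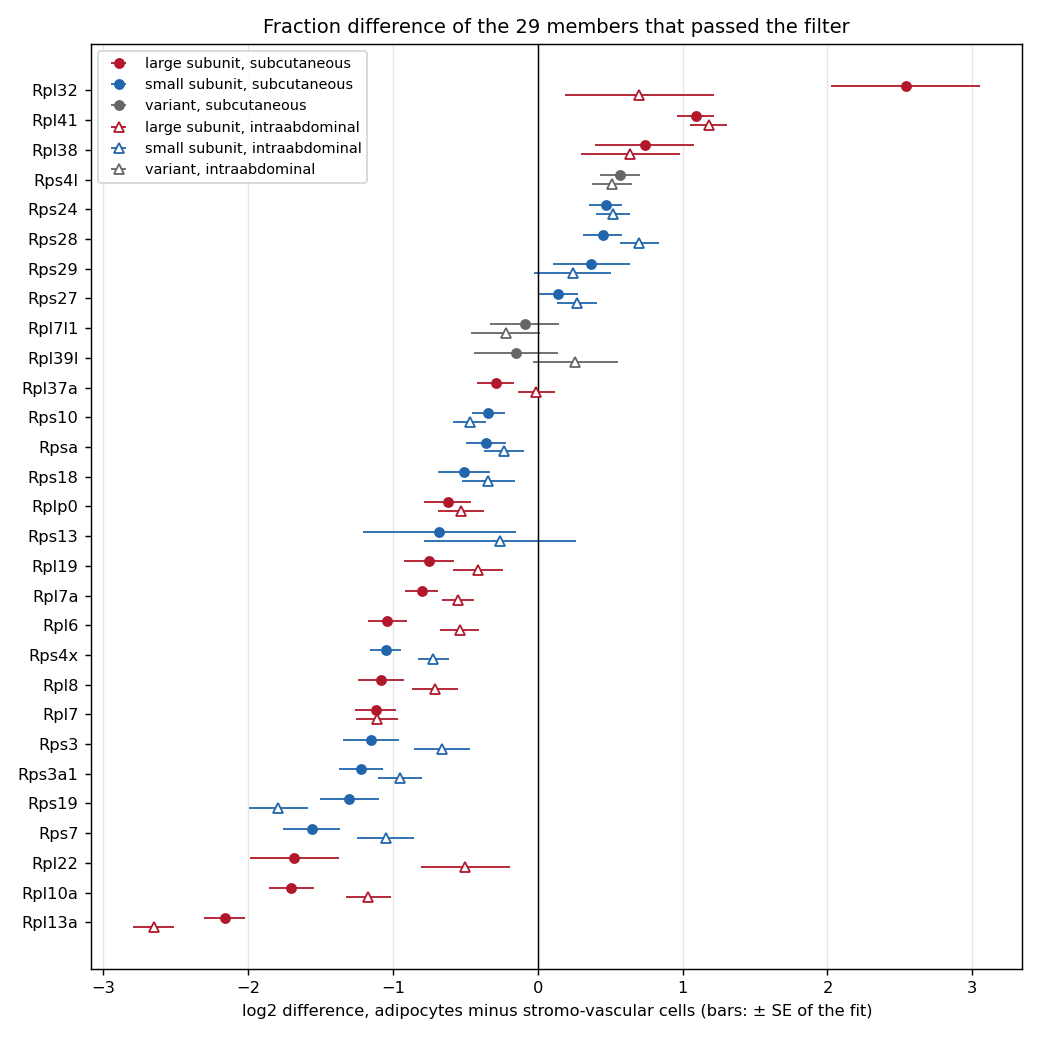
Log2 difference, adipocytes minus stromo-vascular cells, of the 29 tested members with the standard error of the fit, in subcutaneous (filled circles) and intraabdominal fat (open triangles), large subunit in red, small subunit in blue, variants in grey. Rpl13a lies lowest in both depots at -2.16 and -2.65; the points of Rpl41, Rps28 and Rps24 right of 0 moved to 0 or below under quantile normalization in intraabdominal fat, and those of Rps28 and Rps24 did so in subcutaneous fat.

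Among large subunit proteins the largest fall was that of Rpl13a, which besides its place in the ribosome is known to silence translation of some inflammatory messages. Its signal was 1519, 1295 and 1873 on subcutaneous and 1450, 1495 and 1574 on intraabdominal adipocyte arrays, against 6912, 6987 and 7307 and then 8910, 9320 and 10894 on stromo-vascular arrays. Rpl13a was 4.48-fold lower in subcutaneous adipocytes (log2 difference -2.16, SE 0.141, limma adjusted p = 8.86e-09) and 6.28-fold lower in intraabdominal adipocytes (-2.65, adjusted p = 9.66e-10). No adipocyte array came near a stromo-vascular one, and the call held under all 25 alternatives in each depot.

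Rpl10a, a protein of the stalk beside the exit site for transfer RNA, had signals of 7954, 5449 and 9152 in subcutaneous and 12313, 11110 and 10167 in intraabdominal adipocytes. In stromo-vascular cells its signals were 23185, 23997 and 24941 in subcutaneous and 23474, 26141 and 25789 in intraabdominal fat, so the fractions were far apart in both depots. The fall was 3.26-fold (-1.70, SE 0.157, limma adjusted p = 3.82e-07) and 2.24-fold (-1.17, adjusted p = 1.86e-05).

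Rpl7, another core protein of the large subunit, was at 19897, 19904 and 29412 in subcutaneous adipocytes against 48887, 50073 and 48742 in the stromo-vascular cells. In intraabdominal fat it was at 22389, 20924 and 23688 against 47084, 45376 and 52883. It was 2.17-fold lower in adipocytes of each depot, with limma adjusted p-values of 1.04e-05 and 1.05e-05. Rpl8, which lies close to the catalytic centre, was 2.12-fold lower in subcutaneous (21564 ± 5169 against 44892 ± 3064, SD, n = 3) and 1.64-fold lower in intraabdominal adipocytes (25383 ± 2180 against 41657 ± 4736).

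Rpl22, which is also known for its role in lymphocyte development, was dimmer and less even. In subcutaneous adipocytes it read 249, 175 and 407, and in the stromo-vascular cells 935, 1037 and 838, a 3.21-fold difference (limma adjusted p = 0.000305). In intraabdominal fat the signals were 653, 632 and 333 against 776, 862 and 621, which did overlap (-0.50, adjusted p = 0.197). A second Rpl22 probe set of similar brightness read 0.33 and -0.01 and was not called, so the fall of Rpl22 rests on 1 of its 2 probe sets.

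The other large subunit members called lower in both depots were Rpl6, Rpl7a and Rplp0, the base of the stalk that recruits translation factors. Their log2 differences were -1.04, -0.80 and -0.62 in subcutaneous and -0.54, -0.55 and -0.53 in intraabdominal fat. Rpl19 was called in subcutaneous fat (-0.75, limma adjusted p = 0.00199) and read -0.41 with an adjusted p of 0.0637 in intraabdominal fat. Rpl37a and Rpl38 were called in neither fraction comparison.

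In the small subunit the largest falls in subcutaneous fat were those of Rps7, Rps19, Rps3a1 and Rps3. Rps7, needed for processing of the small subunit's ribosomal RNA, had signals of 15625, 12588 and 26380 in subcutaneous adipocytes against 52470, 50310 and 50871 in the stromo-vascular cells. In intraabdominal fat they were 25173, 24910 and 22531 against 44933, 53651 and 52015. The fall was 2.95-fold in subcutaneous (-1.56, SE 0.198, limma adjusted p = 9.87e-06) and 2.07-fold in intraabdominal fat (-1.05, adjusted p = 0.000408), and the fractions did not overlap.

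Rps19, the gene most often mutated in Diamond-Blackfan anaemia, a failure of red cell formation, was at 7160, 6688 and 13226 in subcutaneous and 8716, 8276 and 8341 in intraabdominal adipocytes. Stromo-vascular signals were 21472, 21369 and 20764 in subcutaneous and 31780, 23994 and 32837 in intraabdominal fat. It was 2.46-fold lower in subcutaneous (-1.30, limma adjusted p = 8.06e-05) and 3.45-fold lower in intraabdominal adipocytes (-1.79, adjusted p = 3.32e-06). With Rpl13a it was the member with the largest intraabdominal fall.

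Rps3a1 was at 22630, 20327 and 32611 against 54985, 59870 and 58097 in subcutaneous fat, and at 28456, 24775 and 27176 against 46841, 53755 and 55435 in intraabdominal fat. These gaps came to 2.33-fold (limma adjusted p = 8.49e-06) and 1.94-fold (adjusted p = 9.32e-05), adipocytes lower. Rps3, which lines the channel where messenger RNA enters and also has a role in DNA repair, was 2.21-fold lower in subcutaneous (19745 ± 5159 against 43161 ± 6799, SD, n = 3) and 1.58-fold lower in intraabdominal adipocytes (23206 ± 2890 against 37093 ± 7210). Its intraabdominal call was lost when the third intraabdominal stromo-vascular array was left out and when arrays were centred on the median.

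Rps4x, the X-linked copy of its gene, was at 26968, 24224 and 29147 against 53290, 56275 and 56208 in subcutaneous fat. In intraabdominal fat it was at 31728, 31384 and 33675 against 51623, 51416 and 57008. It was 2.07-fold and 1.65-fold lower in adipocytes (limma adjusted p = 9.73e-07 and 4e-05). Among its 5 probe sets a dim one, with a mean signal of 240, was called the other way in intraabdominal fat (1.79, adjusted p = 0.025). The direction of Rps4x therefore depends on the probe set, and its mean over probe sets read 0.32 and 0.29 in the 2 depots with no call.

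Rps10 was called lower in both depots (-0.34 and -0.47), and Rps18 and Rpsa, also known as a laminin receptor, in subcutaneous fat alone by the threshold (-0.51 and -0.36, against -0.34 and -0.23 in intraabdominal fat). The difference between depots was not called for any of these 3. Rps13, Rps27 and Rps29 were called in neither depot. Rps13 had widely spread signals within a group, such as 323, 1682 and 1141 in intraabdominal adipocytes.

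The members called higher in adipocytes of both depots were Rpl41, Rps28, Rps24 and Rps4l. All of them were read from probe sets with an _f_at, _r_at or _s_at name, as was Rpl32. Among members called lower, only Rpl7 was, and the rest had plain _at names. With plain _at names only, Rps28, Rps24 and Rps4l were not called in either depot. Rpl41 had no plain probe set, so these calls rest on 1 kind of probe set. Rpl41 was at 203071, 182709 and 210881 in subcutaneous and 188231, 197164 and 167318 in intraabdominal adipocytes. In stromo-vascular cells it was at 85879, 89923 and 104820 and at 73745, 79798 and 90935, with no overlap. It was 2.13-fold and 2.26-fold higher in adipocytes as deposited (limma adjusted p = 4.75e-06 and 2.05e-06), but read 0.10 and -0.01 on the log2 scale with no call after quantile normalization.

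Rps28, at the head of the small subunit near the exit of messenger RNA, was at 117595, 123949 and 111135 against 81546, 80624 and 96539 in subcutaneous fat, and at 126651, 124010 and 103487 against 62668, 73238 and 83233 in intraabdominal fat. As deposited it was 1.37-fold and 1.62-fold higher in adipocytes (limma adjusted p = 0.0114 and 0.000518), and quantile normalization turned this to -0.21 (adjusted p = 0.0781) and -0.34 (adjusted p = 0.0084). A second Rps28 probe set with a mean signal of 29706 read -0.33 and 0.09, and the dimmest of the 3 read -0.43 and -0.64, neither set being called. The subcutaneous call was also lost without the first or without the second subcutaneous stromo-vascular array. The direction of Rps28 was thus not settled by its 3 probe sets.

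Rps24, another gene mutated in Diamond-Blackfan anaemia, was at 119264, 124502 and 117013 against 83125, 85989 and 90569 in subcutaneous fat, and at 104708, 108321 and 100405 against 66748, 68200 and 84332 in intraabdominal fat. It was 1.39-fold and 1.44-fold higher in adipocytes as deposited (limma adjusted p = 0.00299 and 0.00148), whereas quantile normalization gave -0.17 (adjusted p = 0.0971) and -0.47 (adjusted p = 0.000254). A second, dim probe set of Rps24 read 0.75 and 0.41 and was not called. These 3 genes gave the brightest member probe sets on the arrays, and quantile normalization turned the order between fractions of Rps24 and Rps28 in both depots and brought Rpl41 to near 0, while it turned none of the members described above as lower. The brightest member signal of an array was 167318 or more in adipocytes and 104820 or less in stromo-vascular cells.

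Over each subunit, 9 of 13 tested large subunit members were lower and 2 higher in subcutaneous adipocytes, against 8 lower and 2 higher of 13 in the small subunit. In intraabdominal fat the counts were 7 lower and 1 higher of 13 against 6 lower and 2 higher of 13. Among all probe sets tested, 29.4% were lower and 23.5% higher in subcutaneous fat, and 29% lower and 22.4% higher in intraabdominal fat. Over the 13 tested members of each subunit the median log2 differences were -0.80 (large) and -0.51 (small) in subcutaneous fat. In intraabdominal fat these were -0.53 and -0.34. With untested members included, the median over all 15 large subunit members was -0.75 in subcutaneous fat. Over all 16 small subunit members it was -0.35 there, a wider gap of -0.40. In intraabdominal fat the medians were -0.50 and -0.30, a gap of -0.20. The gap varied with an SD of 0.205 between subcutaneous and 0.172 between intraabdominal replicates. The intraabdominal gap was thus close to that spread, and it read 0.08 without the third intraabdominal adipocyte array, -0.01 with the mean over probe sets and 0.09 with the actin ratio as a covariate. The subcutaneous gap read 0.06 with that covariate and -0.25 to -0.44 when 1 array was left out. The sign of the gap therefore did not hold under all settings, in either depot.

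Of the 29 tested members, 13 were called lower and 4 higher in adipocytes of both depots, and 0 were called in opposite directions. The share of all probe sets called alike in both depots was not computed, so these counts have no background beside them. In each depot alone, 52.8% (subcutaneous) and 51.3% (intraabdominal) of all probe sets tested were called. Both fraction comparisons use different arrays, but the same scaling and the same culture step. Another 39 probe sets list a ribosomal protein gene together with further genes, mostly near-identical copies, and are not named here. Of the 36 of these that were tested, 25 were lower and 2 higher in subcutaneous adipocytes and 21 lower and 2 higher in intraabdominal ones, with medians over all 39 of -0.66 and -0.65. Among all probe sets tested, 29.4% and 29% were lower and 23.5% and 22.4% higher. The counts of these shared probe sets had the same order as those of the named members.

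Of the 3 variants tested, Rps4l was the one called between fractions. Rps4l, a copy of the S4 gene on another chromosome, was at 2330, 2219 and 2240 against 1392, 1596 and 1535 in subcutaneous fat, and at 2324, 1859 and 2239 against 1493, 1446 and 1512 in intraabdominal fat. It was 1.49-fold and 1.43-fold higher in adipocytes (limma adjusted p = 0.00271 and 0.00612), the opposite direction to the chosen probe set of Rps4x. A dimmer Rps4l probe set, with a mean signal of 342, read 0.34 and -0.34 and was not called. Rpl7l1, a relative of Rpl7 that takes part in ribosome assembly, lay between 404 and 731 on all arrays and was not called in any comparison. Rps27l, a p53 target, had signals of 76.9 to 419 and was not tested.

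**Figure D4:**
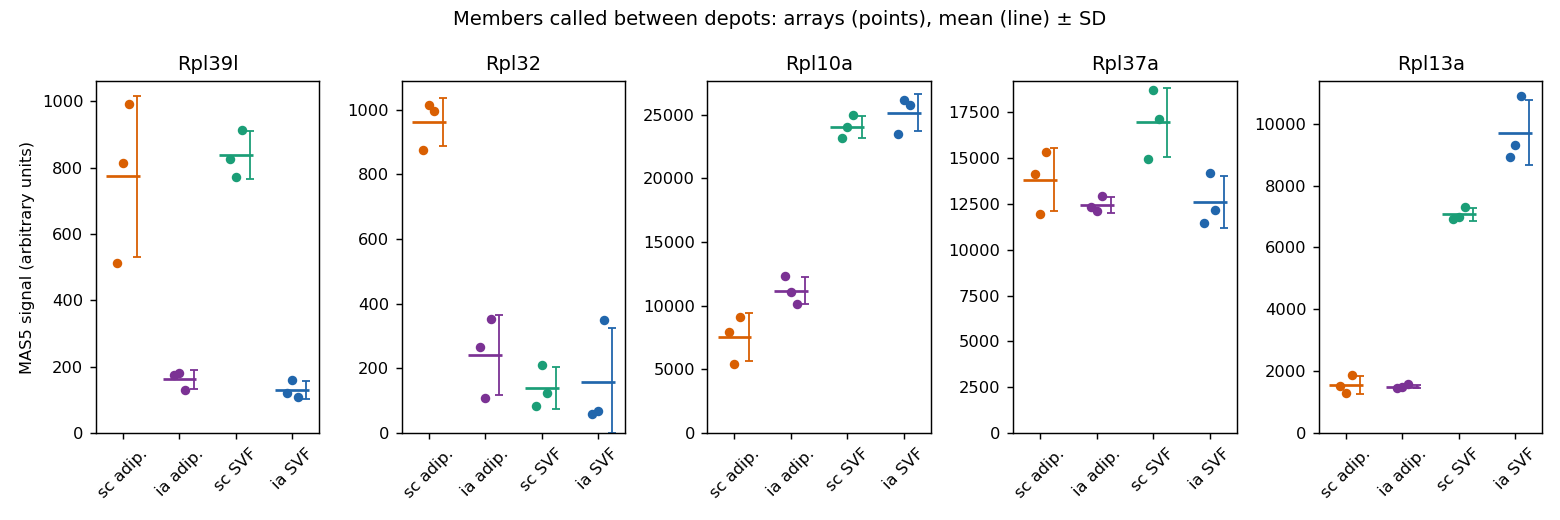
MAS5 signal in arbitrary units of the 5 members called between depots (sc, subcutaneous; ia, intraabdominal; adip., adipocytes; SVF, stromo-vascular cells), with the 3 arrays of each group as points, their mean as a line and ± SD as a bar, stopped at 0 for Rpl32 in intraabdominal stromo-vascular cells, where the SD of 165 exceeds the mean of 159. Rpl39l separates the depots in both fractions, and Rpl32 is high in subcutaneous adipocytes.

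The comparison of depots asked how subcutaneous cells differ from intraabdominal cells of the same fraction, and few members differed. In adipocytes 2 of 29 tested members were called higher in subcutaneous fat (Rpl39l and Rpl32) and 1 lower (Rpl10a), against 3.97% and 4.16% of all probe sets tested. In stromo-vascular cells 2 were higher (Rpl39l and Rpl37a) and 1 lower (Rpl13a), against 6.49% and 6.45% of all. The share of tested members called, 10.3% in each fraction, was near the background of 8.13% and 12.9%. The median over the tested members was 0.02 in adipocytes and 0.10 in stromo-vascular cells, beside 0.07 and 0.06 over all probe sets tested. Over all 35 members it was 0.00 and 0.10, beside 0.14 and 0.07 over all probe sets, untested ones included. The depots did not overlap in 8 of the 35 members in adipocytes (24.3% of all probe sets tested) and in 5 in stromo-vascular cells (37.3%), untested members included.

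Rpl39l was the member with the largest depot difference. It is a copy of Rpl39 best known from testis, where its protein can take the place of Rpl39 in the exit tunnel of the large subunit. Its signals were 513, 815 and 993 in subcutaneous against 176, 182 and 129 in intraabdominal adipocytes. In stromo-vascular cells they were 828, 772 and 914 against 120, 161 and 108. Rpl39l was 3.92-fold higher in subcutaneous adipocytes (1.97, SE 0.292, limma adjusted p = 0.000957) and 5.21-fold higher in subcutaneous stromo-vascular cells (2.38, SE 0.292, adjusted p = 6.05e-05). The intraabdominal means lay below the filter level of about 173, so these folds are on the log2 scale with the pseudocount, and the gene was tested because of its subcutaneous signal. Without the filter the adjusted p-values were 0.00194 and 0.000118. No array of 1 depot reached the other depot, and the 24 alternatives that tested the gene kept both calls. The setting that left out the lowest 50% of probe sets was not among them. The depot difference did not itself differ detectably between fractions (-0.41, SE 0.413, adjusted p = 0.632), nor was the fraction difference called in either depot (-0.15 and 0.26). Rpl39 itself was listed between 35.5 and 222 and was not tested.

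Rpl32, a large subunit gene often used as a reference in expression studies, was at 876, 1014 and 996 in subcutaneous adipocytes, at 266, 108 and 353 in intraabdominal adipocytes, at 83.2, 211 and 125 in subcutaneous and at 60, 67.5 and 349 in intraabdominal stromo-vascular cells. It stood above every other array in subcutaneous adipocytes alone. The difference was 3.83-fold between the adipocyte groups (1.94, SE 0.514, limma adjusted p = 0.0334) and 5.81-fold between the subcutaneous fractions (2.54, adjusted p = 0.000751). The depot call of Rpl32 was lost with the actin covariate and with array weights. It was also lost when any subcutaneous adipocyte array or the first or second intraabdominal adipocyte array was left out. Over the 23 alternatives that tested the gene, the limma adjusted p went up to 0.316. Its only single-gene probe set was dim in the other 3 groups and was tested because of its signal in subcutaneous adipocytes. Without the filter the adjusted p-values were 0.0439 and 0.00111, so the depot call lies close to the threshold.

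Rpl10a was lower in subcutaneous than in intraabdominal adipocytes in each array (7518 ± 1890 against 11197 ± 1076, SD, n = 3), a 1.52-fold difference (-0.60, SE 0.157, limma adjusted p = 0.0313). The call was lost under 8 of 25 alternatives: without the second subcutaneous array or the first or second intraabdominal adipocyte array, with quantile normalization (-0.50), no intensity trend, the actin covariate (-0.18, adjusted p = 0.831), the mean over probe sets (-0.49) and only the groups compared. Its second probe set read -0.38 with an adjusted p of 0.102. Without the third subcutaneous adipocyte array 5 members were called between the adipocyte groups: Rpl10a, Rpl22, Rpl6 and Rps7 lower and Rpl39l higher. Without the third intraabdominal adipocyte array 5 were called too, and without the second subcutaneous or the first or second intraabdominal one Rpl39l alone was. These counts have no share of all probe sets beside them. With all arrays the second Rpl22 probe set read 0.34 between the adipocyte groups (limma adjusted p = 0.653).

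In stromo-vascular cells Rpl37a, a zinc-binding protein of the large subunit, was at 14960, 18698 and 17145 in subcutaneous and 11454, 14192 and 12188 in intraabdominal cells, a 1.34-fold difference (0.42, SE 0.128, limma adjusted p = 0.0419). Rpl13a was lower in subcutaneous cells, with the signals given above (-0.45, SE 0.141, adjusted p = 0.04997). Neither group pair overlapped, but both calls lay at the threshold and were lost under 10 and 16 of 25 alternatives. Rpl39l alone was called when the first or second intraabdominal adipocyte, the second or the third subcutaneous stromo-vascular, or the first or the third intraabdominal stromo-vascular array was left out. Smooth muscle marker signal also differed between these groups, with sums of 43818 to 44772 over 9 genes in subcutaneous and 165634 to 194693 in intraabdominal stromo-vascular cells. So did mesothelium markers (967 to 1263 over 6 genes against 6546 to 6609). Lymphocyte markers summed to 36624 to 38624 over 10 genes against 8058 to 8823. Of the 6 lymphocyte markers tested, however, 1 was called higher and 0 lower, and the median log2 difference over all 10 was 0.15. The part of such cells in the member differences was not tested.

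The interaction subtracts the depot difference of the stromo-vascular cells from that of the adipocytes. By limma it was called for 0 of 29 tested members, against 8.43% of all probe sets (3.9% higher and 4.53% lower). At an unadjusted p under 0.05 there were 6 members, and with array weights 1 was called (Rpl22, lower). Its median was -0.17 over all 35 members and also over the 29 tested, beside 0.03 over all probe sets tested. The largest values were -1.19 for Rpl22 (SE 0.434, adjusted p = 0.119) and 1.84 for Rpl32 (SE 0.727, adjusted p = 0.156). Without the third subcutaneous adipocyte array 4 members were called, all lower: Rpl10a, Rpl22, Rpl6 and Rps7. Without the third intraabdominal adipocyte array Rpl22 was called. The 8.43% of all probe sets is that of all 12 arrays, so these counts have no background beside them. With all arrays the second Rpl22 probe set read 0.34 in the interaction (limma adjusted p = 0.799), the opposite sign.

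The third subcutaneous adipocyte array stood apart from the other arrays of its group. Of the 19 members with a mean signal of 5000 or more, 17 lay above the group mean on it, with a median deviation of 0.32 on the log2 scale, while the second array of the group had 2 of 19 above and a median deviation of -0.25. The actin ratio of the third array was 2.35, against 3.09 and 3.1 on the others, and its part in the spread was not tested. Without this array 18 members were lower and 5 higher in subcutaneous adipocytes than in stromo-vascular cells, and 15 lower and 4 higher in intraabdominal fat.

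The summed adipocyte, fibroblast and smooth muscle markers were each higher in the fraction named for or known to hold those cells. Endothelium and immune markers were not set apart in that way in both depots. Smooth muscle markers summed to 12007 to 14794 in adipocytes against 43818 to 44772 in subcutaneous fat, and to 19477 to 21649 against 165634 to 194693 in intraabdominal fat. Of the 9 tested, 3 were called lower and 2 higher in subcutaneous adipocytes, and 8 lower and 1 higher in intraabdominal ones. The 11 adipocyte markers summed to 616230 to 793192 on adipocyte arrays and to 20361 to 33340 on stromo-vascular arrays, and the fibroblast markers to 54703 to 94172 and 262415 to 393892. Of 11 fibroblast markers, 8 were called lower and 2 higher in subcutaneous adipocytes, and 9 lower and 2 higher in intraabdominal ones. Red cell genes summed to 17511 to 44423 on adipocyte and 381 to 948 on stromo-vascular arrays, whose cells had gone through red cell lysis. Of 10 endothelium markers 9 were called higher in adipocytes of each depot, with sums of 20320 to 36664 against 10382 to 17669. Macrophage markers summed to 22433 to 31909 in adipocytes against 21271 to 21977 in subcutaneous fat, and to 16935 to 26909 against 29751 to 34196 in intraabdominal fat. Of the 10 tested, 4 were called lower and 4 higher in subcutaneous adipocytes, and 5 lower and 4 higher in intraabdominal ones. Lymphocyte markers summed to 15339 to 36075 on adipocyte arrays, 36624 to 38624 in subcutaneous and 8058 to 8823 in intraabdominal stromo-vascular cells. In subcutaneous fat this sum ran against most calls, since 4 of the 6 tested genes were called higher in adipocytes and 1 lower. The part of these admixed cells in the member differences was not tested.

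**Figure D5:**
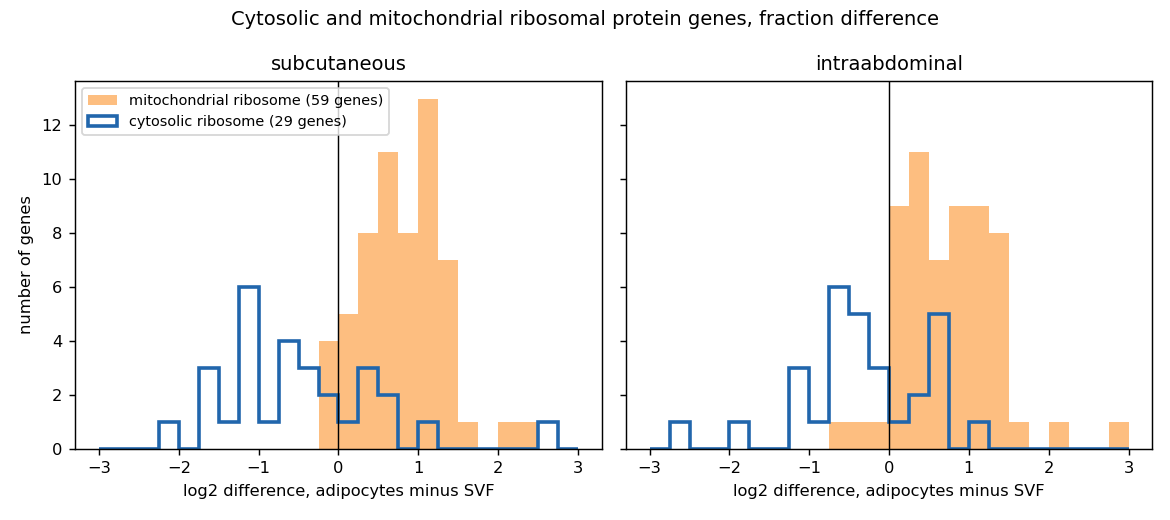
Number of genes by log2 difference, adipocytes minus stromo-vascular cells (SVF), in bins of 0.25, for the 29 tested cytosolic (blue line) and 59 tested mitochondrial ribosomal protein genes (orange), in subcutaneous fat on the left and intraabdominal fat on the right. The orange bars lie mostly right of 0, with medians of 0.78 and 0.72 over the tested genes, and the blue line mostly left of it, with medians of -0.62 and -0.41.

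The proteins of the mitochondrial ribosome, which translates the few messages of the mitochondrial genome, gave a contrast with the cytosolic set. Subcutaneous adipocytes had 41 of 59 tested genes (61 on the array) called higher and 0 lower, and there were 34 higher and 1 lower (Mrpl13) in intraabdominal adipocytes. These are 69.5% and 57.6% higher, where 23.5% and 22.4% of all probe sets tested were higher and 29.4% and 29% lower. The medians over all 61 were 0.75 and 0.66. Mrpl12 was 5.03-fold higher in subcutaneous adipocytes (4904 ± 977 against 942 ± 190, SD, n = 3) and 6.94-fold higher in intraabdominal ones (5909 ± 89.7 against 842 ± 261). Mrps25 was 4.64-fold and 4.6-fold higher. With the actin ratio as a covariate 18 and 26 mitochondrial genes were still called higher, where 1 and 2 cytosolic members were called in all. Of all 8695 probe sets, 501 and 935 were called higher under that setting. Between depots 1 mitochondrial gene was called in adipocytes and 1 in stromo-vascular cells (1.69% each), where 8.13% and 12.9% of all probe sets were called.

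Other lists of translation genes are given by their counts, to be read beside the shares of all probe sets, 29.4% lower and 23.5% higher in subcutaneous and 29% lower and 22.4% higher in intraabdominal fat. Of 18 tested elongation factors and further TOP messages, 7 were lower and 1 higher in subcutaneous adipocytes, and 7 lower and 2 higher in intraabdominal ones. They included Pabpc1, which binds the poly(A) tail (-1.68 in subcutaneous fat), Npm1, a nucleolar assembly factor (-1.43 and -1.28), and Gas5, a host of small nucleolar RNAs whose transcript carries a TOP tract (-1.46 and -0.86). Pabpc1 was also lower in subcutaneous than in intraabdominal adipocytes (-0.79, limma adjusted p = 0.00357), and its interaction was called (-1.05, adjusted p = 0.00447). Of 31 tested initiation factors 13 were lower and 3 higher in subcutaneous and 9 lower and 7 higher in intraabdominal adipocytes. The subcutaneous share lower was 41.9%, and the intraabdominal shares of 29% lower and 22.6% higher were those of the background. Among them were Eif3m at -1.39 and -1.52 and Eif3a at -1.50 and -1.46, both parts of the scaffold that loads the small subunit. Centred on the median, the intraabdominal count of initiation factors was 7 lower and 8 higher.

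Of 21 transfer RNA synthetase genes 11 were lower and 1 higher in subcutaneous adipocytes, and 9 lower and 0 higher in intraabdominal ones. Nars, which charges asparagine transfer RNA, was lowest at -2.28 and -2.17. Of 69 tested ribosome biogenesis genes 28 were lower and 9 higher in subcutaneous fat, and 11 lower and 14 higher in intraabdominal fat, where the shares lower were 40.6% and 15.9%. The interaction was called for 6 of the 69 (8.7%), all negative, where 8.43% of all probe sets were called and 4.53% were negative, among them Myc (-1.42, limma adjusted p = 0.00141), a regulator of ribosome production, and Gnl3 (-1.19, adjusted p = 0.0162), a nucleolar GTP-binding protein. In stromo-vascular cells 7 of the 69 biogenesis genes (10.1%) were higher in subcutaneous fat and 0 lower, against 6.49% and 6.45% of all probe sets tested. Gnl3 was among them (1.13, limma adjusted p = 0.00133). The median over the tested genes was 0.31 for this list, 0.10 for the ribosomal protein members and 0.06 for all probe sets there.

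The mTOR axis, with 16 tested genes, had 8 higher and 2 lower in adipocytes of subcutaneous fat, and 6 higher and 3 lower in those of intraabdominal fat. Akt2, the kinase through which insulin acts in adipocytes, was 7.51-fold and 6.46-fold higher, and Eif4ebp2, a repressor of cap-dependent initiation, was 2.6-fold and 2.72-fold higher. Of 24 tested cell cycle genes 7 were lower in subcutaneous adipocytes (29.2%, near the 29.4% of all probe sets) and 13 in intraabdominal ones (54.2% against 29%), and 0 were higher, beside stromo-vascular cells that had been in culture. With the actin ratio as a covariate the calls of these lists in subcutaneous fat were 1 lower and 0 higher for elongation and TOP messages, initiation factors and cell cycle genes each, 2 lower and 1 higher for synthetases, 1 lower and 2 higher for biogenesis and 1 lower and 1 higher for the mTOR axis. More calls were left in intraabdominal fat, as over all probe sets tested (25% called there, against 12.2% in subcutaneous fat). Of all 8695 probe sets, 557 were lower and 501 higher in subcutaneous fat under that setting. The counts were 1238 lower and 935 higher in intraabdominal fat. There 8 cell cycle genes stayed lower with a median of -1.38, against -0.88 without the covariate. Initiation factors kept 4 lower and 3 higher there, synthetases 4 lower and 1 higher, biogenesis 3 lower and 4 higher, the mTOR axis 1 lower and 2 higher, and elongation and TOP messages 1 lower and 0 higher.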

How the data were processed

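Messenger RNA was measured on 12 Affymetrix expression arrays, 15 µg of RNA each. Each deposited value is a linear intensity, made by the authors with MAS5 per the submitters' processing notes. The 2% trimmed means lay within a ratio of 1.00017, so arrays share a scale. Of 12488 probe sets 66 controls were left out, and 10833 had 1 symbol in the platform annotation, which can be old. A pseudocount of 40.09 (the 10th percentile) was added before log2, so folds are on that scale and understate the change where signal is low. Testing covered 8695 probe sets, without the 30% of lowest mean log2 signal. The 4 group means were estimated together with limma 3.58.1 (eBayes with an intensity trend, 8 residual degrees of freedom) in R 4.3.3, and p-values were adjusted by Benjamini-Hochberg per contrast. Signs are subcutaneous minus intraabdominal, and adipocytes minus stromo-vascular cells. The median standard error was 0.241 (interaction 0.341). The labels do not say whether the 3 samples of a group are separate pools, so p-values measure only the spread between these samples. The members, lists and tests were chosen with earlier results of these data known. Named were the up to 8 called members per contrast and direction with the largest differences and no overlap, up to 5 for the interaction, the variants, the 3 brightest and 3 dimmest members and those with opposed probe sets, and up to 3 called genes of each other list. Other members are named only to account for each.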

Additional observations from a re-analysis of the deposited data

How the results depend on the processing

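Every result was recomputed with other pseudocounts, filters, scalings, probe set choices, array weights, no intensity trend, only the groups compared, a replicate block, the actin ratio as a covariate, and without each array in turn; the mitochondrial list was added to these after its values were seen. Settings that changed nothing beyond 1.5 times are not listed, and the cause was not tested for those that did. Member calls between adipocyte depots went from 3 to 6 with arrays centred on the median and to 1 with the actin covariate, and ranged from 1 to 5 without 1 array. Between stromo-vascular depots they went from 3 to 1 with no filter, with centring and with no intensity trend, and ranged from 1 to 4. Fraction calls went from 22 to 1 (subcutaneous) and from 17 to 2 (intraabdominal) with the actin covariate, and ranged from 19 to 23 and from 16 to 19 without 1 array. The interaction gave 1 call with array weights and 0 to 4 without 1 array. The median fraction difference became 0.18 and 0.09 with the covariate and -0.10 in intraabdominal fat with centring, which moved the median of all probe sets there from -0.11 to 0.05. It ranged from -0.52 to -0.33 and from -0.43 to -0.25 without 1 array, the lowest intraabdominal value being that without the first intraabdominal stromo-vascular array. Depot medians ranged from -0.16 to 0.05 and from 0.03 to 0.18, and that of the interaction from -0.23 to -0.07. The gap between subunits became 0.06 and 0.09 with the covariate and -0.01 in intraabdominal fat with the mean over probe sets. Without 1 array it ranged from -0.44 to -0.25 in subcutaneous and from -0.20 to 0.08 in intraabdominal fat, from -0.19 to 0.02 and from -0.07 to 0.05 for the depots, and from -0.23 to 0.07 for the interaction. Mitochondrial genes called higher went from 41 to 18 in subcutaneous fat with the covariate, and ranged from 38 to 43 and from 29 to 35. Centring turned the depot split of all probe sets in adipocytes from 345 higher and 362 lower to 172 and 786, and that of the intraabdominal fractions from 1944 and 2518 to 2285 and 2088.

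Directions turned with the actin covariate for Rpl22 (0.34), Rps19 (0.06), Rps3 (0.20) and Rps7 (0.02) in subcutaneous fat and for Rps3 (0.21) in intraabdominal fat. They turned with quantile normalization for Rpl41 (-0.01), Rps24 (-0.47) and Rps28 (-0.34) in intraabdominal fat and for Rps24 (-0.17) and Rps28 (-0.21) in subcutaneous fat. With the mean over probe sets Rps28 (-0.10) and Rps4x (0.32) turned in subcutaneous and Rps4x (0.29) in intraabdominal fat, and with plain probe set names Rps28 (-0.33) in subcutaneous and Rps4l (-0.34) in intraabdominal fat. The deviations of the 18 pairs of arrays with the same number correlated between -0.09 and 0.11, so such pairs showed little shared variation. Low correlations do not exclude a shared origin of same-numbered arrays. Whether the numbers pair the samples was therefore not decided, and the labels do not say. With the replicate block 3, 2, 21, 17 and 0 members were called in the adipocyte depot, stromo-vascular depot, subcutaneous fraction, intraabdominal fraction and interaction comparisons, against 3, 3, 22, 17 and 0 without it. Under the block Rpl37a lost its depot call and Rpsa its subcutaneous fraction call. The number of arrays, 3 a group, limits the precision.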
